A study of Homo sapiens with 6 samples.

Results

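The genes described here are the zinc metalloproteases of the MMP, ADAM and ADAMTS families, the ADAMTS-like proteins and the tissue inhibitors of metalloproteinases (TIMPs). Members were the genes with a probe set whose only annotated symbol was MMP, ADAM, ADAMTS or ADAMTSL followed by a number, or TIMP1, TIMP2, TIMP3 or TIMP4. There were 78 such genes among the 19775 on the array, measured by 176 probe sets. They comprised 22 MMPs, 18 ADAMs, 18 ADAMTSs, 5 ADAMTS-like genes, 4 TIMPs and 11 other transcripts that share the names (antisense, opposite-strand and divergent RNAs and pseudogenes). Where a gene had several probe sets, the one brightest on average over the 6 arrays stood for it.

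CaSki, a long-established line from a human cervical squamous cell carcinoma, was the cell studied. Cultures received recombinant TGF-β1 at 2 ng/mL (3 arrays) or medium without it (3 untreated arrays), and all were kept in serum-containing medium. The labels do not say whether the 3 arrays of a group came from separate cultures, so the p-values measure a spread that may be technical, and no length of treatment is given in the labels. The values are log2 expression estimates, so a difference of 1 is a 2-fold difference.

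MMPs are made as inactive precursors and, once activated, cut collagens, other matrix proteins and growth factor carriers. ADAMs are membrane proteins, many of which release the outer part of other membrane proteins (shedding), while ADAMTSs are secreted and cut proteoglycans, procollagens and other matrix proteins. ADAMTS-like proteins resemble ADAMTSs without the protease domain. TIMPs bind the active sites of many of these enzymes, though not of all, and block them. TIMP2 also takes part in the activation of pro-MMP2 at the cell surface by MMP14. In carcinomas these families are known for matrix remodelling at invading edges.

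Of the 78 members 11 rose and 1 fell with TGF-β1 (limma, Benjamini-Hochberg adjusted p below 0.05 over all 19775 genes). Of all genes 8.50% were called in either direction, 4.03% as higher and 4.47% as lower, against 15.4%, 14.1% and 1.28% of the members. The rises were MMP2, MMP9, MMP10, MMP13, MMP14, ADAM12, ADAM19, ADAMTS1, ADAMTS15, TIMP2 and TIMP3, and the fall was MMP7. The median difference was 0.09 over the members and -0.0027 over all genes (log2). Of the members 41 had a mean above the median probe set (4.16, log2), and 11 of these were called, 26.8%, against 12.0% of all genes above that level. Of the 37 dimmer members 1 was called, ADAMTS15, and 1.68% of all dimmer genes were. Values of the groups did not overlap for 28 members, 35.9%, with 24 higher and 4 lower, against 29.2% of all genes, 12.9% higher and 16.3% lower.

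**Figure D1:**
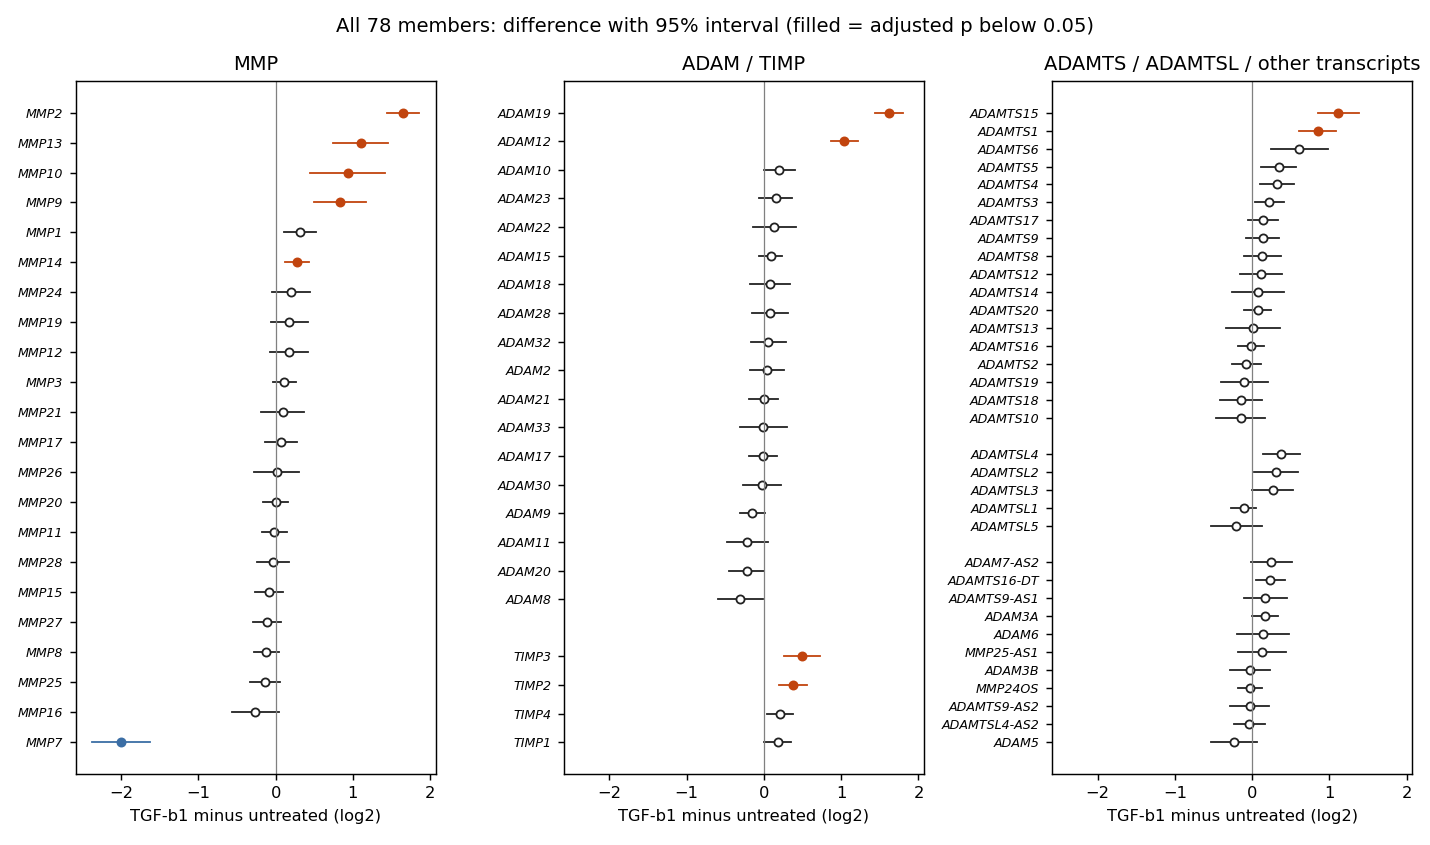
Difference between TGF-β1-treated and untreated cells (log2, x axis) for each of the 78 members, by subfamily, with its 95% interval from limma. Filled points are the 11 rises and 1 fall with an adjusted p below 0.05, and most other intervals include 0.

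The arrays numbered 1 stood apart in both groups in a sign of RNA quality. The 3′ over 5′ signal, averaged over controls for GAPDH and ACTB, was 1.15 on TGF-β1 array 1 and 1.19 on untreated array 1, against 0.69 to 0.86 on the other 4 (log2). Its group means were 0.859 ± 0.256 with TGF-β1 and 0.939 ± 0.218 untreated (SD, n = 3 each; p = 0.5 by an exact two-sided permutation test that could not go below 0.1). Without both arrays numbered 1, 8 members were called higher and 1 lower. Of all 19775 genes 356 were called higher and 271 lower there, against 796 and 884 with all 6 arrays. The keratins, CDH1 and EPCAM that mark epithelium (7 of 8 markers measured) all lay above the median probe set, with a mean level of 10.7 to 10.9 on TGF-β1 arrays and 10.6 to 10.7 on untreated arrays. Of these 7, KRT14 and KRT8 were called higher, by 0.77 and 0.60 (adjusted p = 0.0027 and 0.00342), and EPCAM lower, with a difference of -0.70 (log2, adjusted p = 9.48e-04). Fibroblast markers had a mean level of 4.54 to 4.63 on TGF-β1 arrays and 4.27 to 4.41 on untreated arrays, and of the 8 only COL1A1 was called, higher by 1.58 (log2). Of 6 endothelial markers KDR was called higher and CDH5 lower, both below the median probe set, and of 6 immune markers limma called 0 (2 at an unadjusted p below 0.05). Whether other cells contributed was not tested.

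Both gelatinases, which digest denatured collagen and basement membrane collagen, rose. MMP2 read 6.92, 7.17 and 7.09 on the TGF-β1 arrays and 5.51, 5.31 and 5.41 on the untreated arrays (log2). Every treated value lay more than 1 log2 unit above every untreated one. MMP2 was 3.14-fold higher, a difference of 1.65 ± 0.09 (SE, limma adjusted p = 4.48e-05), and its 95% interval ran from 1.44 to 1.86. Its other 2 probe sets, at means of 2.63 and 3.60, differed by 0.02 and -0.00 and lay below the median probe set. Averaging the 3 probe sets gave a difference of 0.56 for MMP2 (adjusted p = 0.00511).

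MMP9 read 5.72, 6.27 and 6.28 with TGF-β1 and 5.34, 5.19 and 5.24 untreated (log2). The groups did not overlap, and TGF-β1 array 1 was the lowest of its group. MMP9 was 1.78-fold higher, by 0.84 ± 0.15 (SE, adjusted p = 0.0132), and by 1.06 without both arrays numbered 1 (adjusted p = 0.00699). Leaving out untreated array 2 or 3 ended the call (adjusted p = 0.0538 and 0.0556).

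Of the collagenases, which cleave fibrillar collagen, MMP13 rose. It read 6.13, 6.17 and 6.27 with TGF-β1 and 4.71, 5.39 and 5.17 untreated (log2). The treated values lay close together and the untreated ones were spread, the lowest being array 1. MMP13 was 2.14-fold higher, by 1.10 ± 0.16 (SE, adjusted p = 0.00484). MMP1, interstitial collagenase, read 4.91, 4.83 and 4.82 with TGF-β1 and 4.45, 4.71 and 4.45 untreated, without overlap. Its difference of 0.32 had an interval from 0.11 to 0.52 and did not pass (adjusted p = 0.0718), although it did without untreated array 2 (adjusted p = 0.0461). MMP8, neutrophil collagenase, was dim at 2.80 ± 0.05 with TGF-β1 and 2.92 ± 0.06 untreated (SD, n = 3 each) and did not pass.

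Among the stromelysins, which act on proteoglycans, laminin and other non-collagen matrix, MMP10 rose. It read 4.47, 4.91 and 5.17 with TGF-β1 and 3.53, 4.02 and 4.20 untreated (log2). Array 1 was the lowest in both groups, and every treated value exceeded every untreated value. MMP10 was 1.91-fold higher, by 0.93 ± 0.21 (SE, adjusted p = 0.0340). This call was kept without TGF-β1 array 1 and lost without any of the other 5 arrays (adjusted p up to 0.0973). MMP3 was dim at 2.85 ± 0.03 with TGF-β1 and 2.73 ± 0.03 untreated (SD, n = 3 each), and its difference of 0.11 did not pass (interval from -0.04 to 0.27). MMP11 differed by -0.02.

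MMP14, the membrane-anchored MMP that activates pro-MMP2, rose by a small amount on its brightest probe set. The values were 6.96, 6.99 and 6.96 with TGF-β1 and 6.70, 6.74 and 6.64 untreated (log2). They were tight in each group, and the difference was 0.28 ± 0.07 (SE, 1.21-fold, adjusted p = 0.0417). It no longer passed when any single array was left out (adjusted p up to 0.141), when both arrays numbered 1 were (adjusted p = 0.134), or when probe sets whose suffix marks shared sequence were (adjusted p = 0.0634). Of its other 3 probe sets, all above the median level, 2 differed by 0.78 and 0.45 with adjusted p of 0.00431 and 0.0241 over all 54613 probe sets, of which 3.24% were called, and the last by 0.11. On that basis the brightest probe set of MMP14 did not pass (adjusted p = 0.102). None of the other 5 membrane-type MMPs (MMP15, MMP16, MMP17, MMP24 and MMP25) passed, with differences between -0.26 and 0.20.

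MMP7, or matrilysin, a small secreted MMP of epithelial cells, was the member with the largest difference, and the only one that fell. It read 4.71, 4.95 and 5.02 with TGF-β1 and 6.53, 7.19 and 6.96 untreated (log2). Array 1 was the lowest in both groups, and the groups lay more than 1 log2 unit apart. MMP7 was 4.01-fold lower, a difference of -2.00 ± 0.16 (SE, interval from -2.38 to -1.63, adjusted p = 3.21e-04). Leaving out single arrays gave -2.18 to -1.85, with adjusted p up to 0.00354. MMP26, the other matrilysin, lay at 2.98 with TGF-β1 and 2.97 untreated, below the median probe set.

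**Figure D2:**
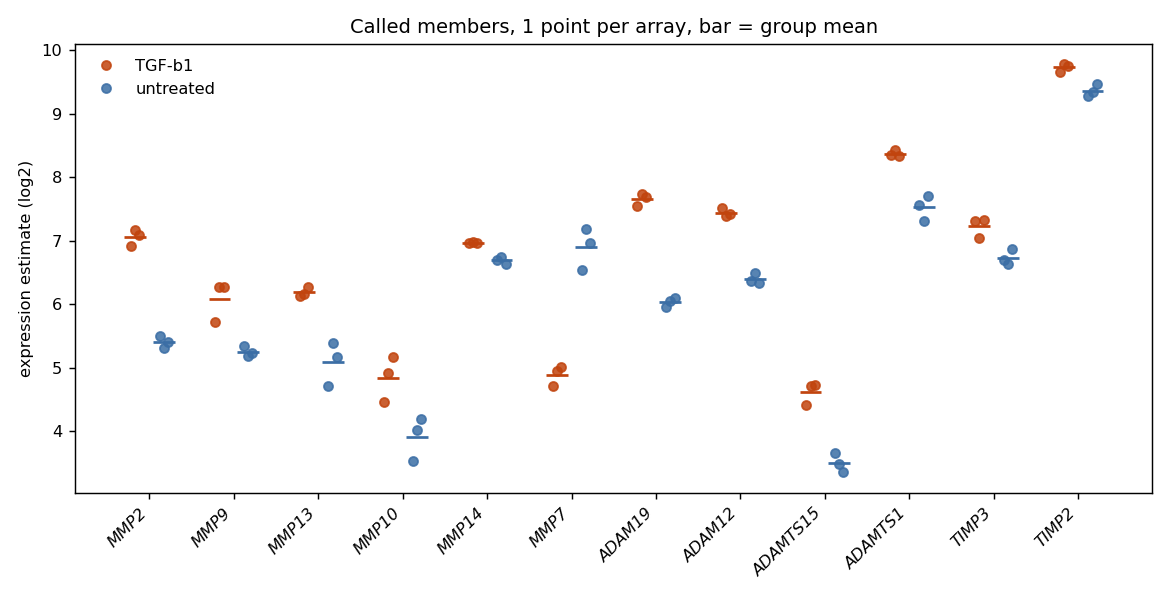
Expression estimate (log2, y axis) of the 12 called members, with 1 point per array, TGF-β1 in orange left of untreated in blue, and bars for the group means. For MMP2 and ADAM19 the treated values all lie more than 1 log2 unit above the untreated ones, MMP7 shows the reverse, and MMP14 and TIMP2 differ by less than 0.4.

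MMP7, MMP10 and MMP13 belong to a row of 9 MMP genes that neighbour each other on chromosome 11, with no other protein-coding gene between them in RefSeq. Their order is MMP7, MMP20, MMP27, MMP8, MMP10, MMP1, MMP3, MMP12 and MMP13. MMP7 at one end fell, MMP13 at the other end and MMP10 in the middle rose, and the other 6 did not pass. Of those 6, MMP1 lay above the median probe set and the other 5 had means of 2.31 to 3.03, below it. The called share of all genes was 8.50%, with 12.0% above the median probe set and 1.68% of the dimmer genes.

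**Figure D3:**
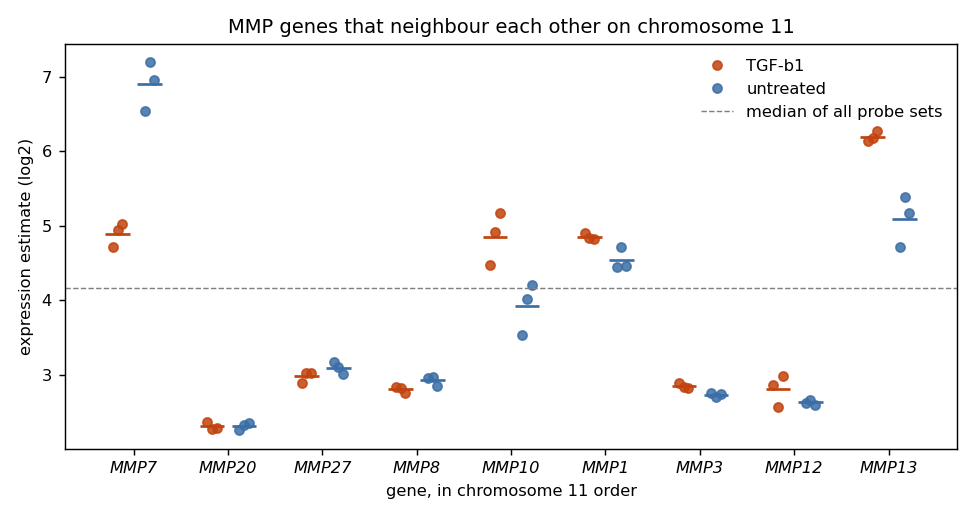
Expression estimate (log2, y axis) of the 9 neighbouring MMP genes in their chromosome 11 order, with 1 point per array, TGF-β1 in orange left of untreated in blue, bars for the means and a dashed line at the median of all probe sets. MMP7 is lower with TGF-β1, MMP10 and MMP13 are higher, and MMP20, MMP27, MMP8, MMP3 and MMP12 lie below the line in both groups.

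MMP7 and MMP10, of the same row, moved in opposite directions, and ADAM19 had the second largest rise among the members. Their promoters are printed for this reason, that of ADAM19 also because it is of another kind. They are the 250 bases before the annotated start in RefSeq (GRCh38.p14), written 5′ to 3′ on the strand of the gene: chr11:102530748-102530997 for MMP7, chr11:102780629-102780878 for MMP10 and chr5:157575776-157576025 for ADAM19, all on the minus strand. Capitals mark matches to 4 motifs searched on both strands: TGANTCA (bound by AP-1, a dimer of FOS and JUN proteins), CAGACA (the core of the CAGA box bound by SMADs), the TGF-β inhibitory element described in a rat stromelysin promoter (G, any 2 bases, TTGG, any base, G, any base) and TATAAA.
MMP7: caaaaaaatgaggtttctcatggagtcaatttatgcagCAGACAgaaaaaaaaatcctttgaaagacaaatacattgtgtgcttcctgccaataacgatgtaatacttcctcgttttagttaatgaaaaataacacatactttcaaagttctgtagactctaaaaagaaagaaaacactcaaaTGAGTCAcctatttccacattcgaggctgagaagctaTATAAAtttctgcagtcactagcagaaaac
MMP10: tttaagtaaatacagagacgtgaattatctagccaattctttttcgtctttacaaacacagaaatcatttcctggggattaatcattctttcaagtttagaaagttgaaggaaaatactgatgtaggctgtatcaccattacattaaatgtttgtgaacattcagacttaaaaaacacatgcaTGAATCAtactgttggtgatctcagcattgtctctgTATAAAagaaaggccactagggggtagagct
ADAM19: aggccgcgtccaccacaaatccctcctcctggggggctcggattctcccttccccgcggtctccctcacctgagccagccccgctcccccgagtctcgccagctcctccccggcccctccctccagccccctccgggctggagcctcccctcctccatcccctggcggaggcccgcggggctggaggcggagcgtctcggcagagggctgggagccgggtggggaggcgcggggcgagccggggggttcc
Both MMP promoters held TGANTCA at -67 to -61 from the start and TATAAA at -30 to -25 in MMP7 and -31 to -26 in MMP10, so these letters and their positions were nearly alike in a gene that fell and a gene that rose. The positions are not particular to these genes, since the most common starts of the 2 motifs on the gene's strand over all promoters were -67 and -29. MMP7 also held CAGACA at -212 to -207. No match overlapped another, and none was found in the ADAM19 window. Of 27305 RefSeq promoters of this length, 6.60% held TGANTCA, 13.6% CAGACA, 16.0% the inhibitory element and 11.1% TATAAA. Promoters were at hand for 45 of the 78 members, of which 4, 6, 8 and 9 held these motifs, and for 6 of the 12 called members. ADAM12, MMP14 and TIMP3 held none. The MMP7 and MMP10 windows were AT-rich, with 33.6% and 34.4% G and C, against 76.4% in ADAM19, 73.6% in ADAM12, 72.4% in TIMP3, 56.8% in MMP14 and a median of 58.0% over all promoters. A match is a description of letters and does not show that a factor binds there.

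Of the 18 ADAMs, ADAM19 and ADAM12 rose and 0 fell, a called share of 11.1%, near the 8.50% of all genes. Both carry the catalytic zinc site and are known to shed growth factors of the EGF family. ADAM19, or meltrin beta, read 7.55, 7.73 and 7.68 with TGF-β1 and 5.96, 6.05 and 6.09 untreated (log2). The groups were tight and far apart. ADAM19 was 3.08-fold higher, by 1.62 ± 0.08 (SE, interval from 1.44 to 1.80, adjusted p = 2.85e-05). Its second probe set, at a mean of 3.74 below the median level, differed the other way by -0.31 without passing (adjusted p = 0.134 over all probe sets). With the 2 probe sets averaged, the ADAM19 difference was 0.66 (adjusted p = 0.0017).

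ADAM12, or meltrin alpha, read 7.51, 7.38 and 7.41 with TGF-β1 and 6.36, 6.49 and 6.33 untreated (log2). Treated values exceeded untreated ones on every array, and the gene was 2.06-fold higher, by 1.04 ± 0.08 (SE, adjusted p = 2.10e-04). Of its 5 probe sets 3 rose, by 1.04, 1.19 and 1.45. The other 2, at means of 5.77 and 3.81, differed by 0.13 and 0.11 without passing, so the probe sets of ADAM12 did not move alike.

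The main sheddases did not pass. ADAM17, which releases TNF and EGF receptor ligands, read 8.58, 8.63 and 8.74 with TGF-β1 and 8.59, 8.66 and 8.74 untreated (log2). The groups overlapped over nearly their whole range, and the interval of the difference ran from -0.19 to 0.17. ADAM10, which cuts Notch receptors and cadherins, read 10.6, 10.4 and 10.4 with TGF-β1 and 10.3, 10.2 and 10.2 untreated, a difference of 0.20 with an interval from 0.0027 to 0.40 (adjusted p = 0.21). ADAM9, a further sheddase with bright signal, averaged 11.1 ± 0.06 with TGF-β1 and 11.2 ± 0.04 untreated (SD, n = 3 each), a difference of -0.15 (adjusted p = 0.265). On their brightest probe sets the groups did not overlap for ADAM10 and ADAM9, and on the other probe sets of both genes they did. The other ADAM10 probe sets, at means of 7.16 and 6.47, differed by 0.028 and 0.032. The lowest ADAM difference was that of ADAM8, a leukocyte sheddase, at -0.31 (adjusted p = 0.197). Of the 12 ADAMs with a catalytic zinc site 2 rose, and 10 lay above the median probe set. Of the 6 without it (ADAM2, ADAM11, ADAM18, ADAM22, ADAM23 and ADAM32) none passed, with differences between -0.21 and 0.15, and 2 lay above that level. Over all genes 8.50% were called, with 12.0% of those above the median probe set and 1.68% of the others.

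Among the 18 ADAMTSs, ADAMTS1 and ADAMTS15 rose and 0 fell, again 11.1% against 8.50% of all genes. Both belong to the proteoglycanases, which cut aggrecan and versican. ADAMTS1 read 8.35, 8.43 and 8.33 with TGF-β1 and 7.57, 7.31 and 7.70 untreated (log2). The groups did not overlap, and the gene was 1.80-fold higher, by 0.85 ± 0.11 (SE, adjusted p = 0.00268). A dimmer ADAMTS1 probe set, at a mean of 5.85, rose as well, by 0.45 (adjusted p = 0.0383 over all probe sets). ADAMTS15 read 4.41, 4.71 and 4.73 with TGF-β1 and 3.66, 3.49 and 3.36 untreated. It was 2.17-fold higher, by 1.12 ± 0.11 (SE, adjusted p = 0.00102), from untreated values below the median probe set, where the size of a fold is uncertain. Its second probe set, at a mean of 3.67, differed by 0.04, and the average of the 2 gave a difference of 0.58 for ADAMTS15 (adjusted p = 0.0161).

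All 7 proteoglycanases measured had a positive difference on the probe set that represents the gene, from 0.07 to 1.12 with a median of 0.32. However, 5 of the 7 lay below the median probe set and 5 did not pass. Among these, ADAMTS4 and ADAMTS5, the main aggrecanases of cartilage, differed by 0.32 and 0.34 without overlap between the groups (adjusted p = 0.0818 and 0.0769). The ADAMTS5 probe set was dim, at a mean of 2.51, and the other ADAMTS5 probe sets differed by 0.15, 0.0075 and 0.08 with overlap. Other probe sets differed by -0.11 and -0.07 for ADAMTS8, by -0.01, 0.05 and 0.02 for ADAMTS9 and by 0.09 for ADAMTS20. ADAMTS6, at 4.10, 3.92 and 4.56 with TGF-β1 and 3.43, 3.61 and 3.72 untreated, differed by 0.61 and stood just outside the threshold (adjusted p = 0.0551). Its mean of 3.89 lay below the median probe set, and its other probe sets differed by 0.15 and -0.04. The 3 procollagen N-propeptidases ADAMTS2, ADAMTS3 and ADAMTS14, which trim fibrillar procollagens, differed by -0.08, 0.22 and 0.07 without passing. ADAMTS12 differed by 0.12 (adjusted p = 0.605). ADAM8, ADAMTS4, ADAMTS5, ADAMTS6 and the ADAMTS-like gene ADAMTSL4 are named after their values were seen.

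Of the 5 ADAMTS-like genes limma called 0 (2 at an unadjusted p below 0.05). ADAMTSL4, a binding partner of fibrillin microfibrils, differed by 0.38 (adjusted p = 0.0657), and the 2 brightest members, ADAMTSL3 and ADAMTSL5, differed by 0.27 and -0.20. The 11 antisense, divergent and pseudogene transcripts also had 0 calls (2 at an unadjusted p below 0.05), with differences between -0.24 and 0.25, and 10 of them lay below the median probe set.

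On the probe set that represents each gene, all 4 inhibitors read higher on every TGF-β1 array than on any untreated array, as 12.9% of all genes did. Of the 4, 2 were called higher, as 4.03% of all genes were. All 4 lay above the median probe set, where 2002 of 13097 genes read higher without overlap and 5.54% were called higher. TIMP3, which stays bound to the matrix and inhibits ADAM17 and aggrecanases besides MMPs, read 7.31, 7.05 and 7.32 with TGF-β1 and 6.70, 6.63 and 6.87 untreated (log2). It was 1.41-fold higher, by 0.49 ± 0.10 (SE, adjusted p = 0.0248). All 4 TIMP3 probe sets rose, and the brightest, which represents the gene, differed least: the other 3 differed by 0.73, 1.11 and 1.08, with adjusted p of 0.00634, 0.0123 and 0.00241 over all probe sets. The representative did not pass when untreated array 1 or 2 or TGF-β1 array 1 or 3 was left out (adjusted p up to 0.0918), or when both arrays numbered 1 were (adjusted p = 0.161). The average of the 4 probe sets differed by 0.85 (adjusted p = 3.58e-04).

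TIMP2 read 9.66, 9.78 and 9.76 with TGF-β1 and 9.27, 9.34 and 9.46 untreated (log2). It was 1.30-fold higher, by 0.37 ± 0.08 (SE, adjusted p = 0.0259). It did not pass when untreated array 1 or 2 or TGF-β1 array 2 or 3 was left out (adjusted p up to 0.0903), when both arrays numbered 1 were (adjusted p = 0.0915), with its 3 probe sets averaged (adjusted p = 0.0866), or with probe sets of shared-sequence suffixes left out (adjusted p = 0.104). Over all probe sets the TIMP2 representative did not pass (adjusted p = 0.0575). Its other probe sets, at means of 8.62 and 6.55, differed by 0.26 and 0.19 (adjusted p = 0.153 and 0.525), and the dimmest overlapped between the groups. TIMP1, a soluble inhibitor, read 8.63, 8.76 and 8.77 with TGF-β1 and 8.62, 8.49 and 8.51 untreated, a difference of 0.18 with an interval from 0.00082 to 0.35 (adjusted p = 0.214). TIMP4 differed by 0.21 (adjusted p = 0.14).

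**Figure D4:**
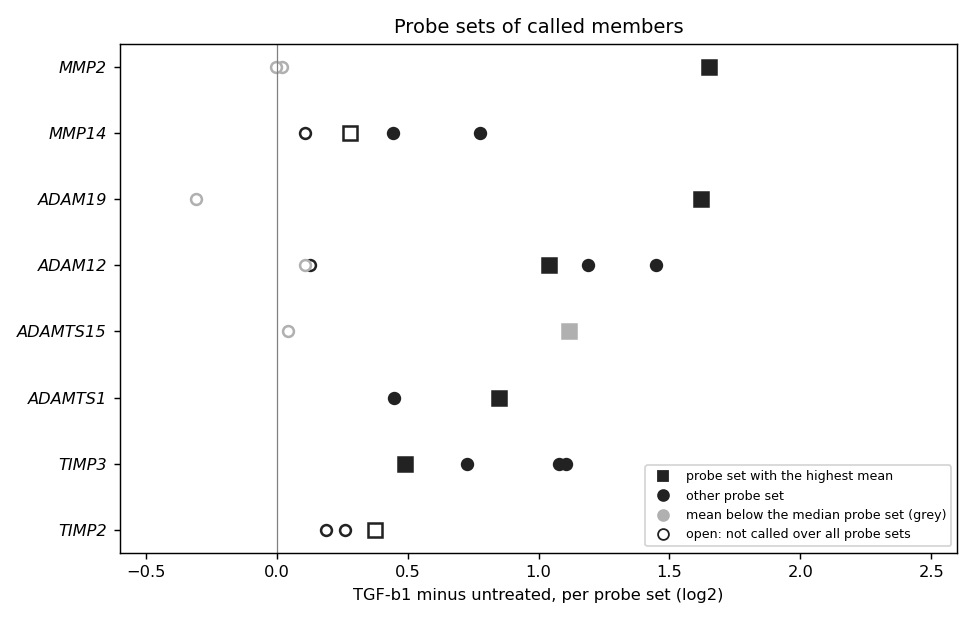
Difference between TGF-β1-treated and untreated cells (log2, x axis) for every probe set of the 8 called members with more than 1. Squares mark the probe set that represents the gene, grey marks a mean below the median probe set, and open symbols did not pass over all probe sets: TIMP3 and ADAMTS1 rose on all of theirs, while MMP2, ADAM19 and ADAMTS15 rose on 1.

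The 12 calls differed in how they held when the processing was changed. MMP2, MMP13, ADAM12, ADAM19, ADAMTS1 and ADAMTS15 as rises, and MMP7 as a fall, passed under every alternative that measured them. Nearest to the threshold among these was ADAMTS1 without both arrays numbered 1 (limma adjusted p = 0.0496). The other 5, MMP9, MMP10, MMP14, TIMP2 and TIMP3, lost the call under at least 1 alternative and kept their direction throughout.

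**Figure D5:**
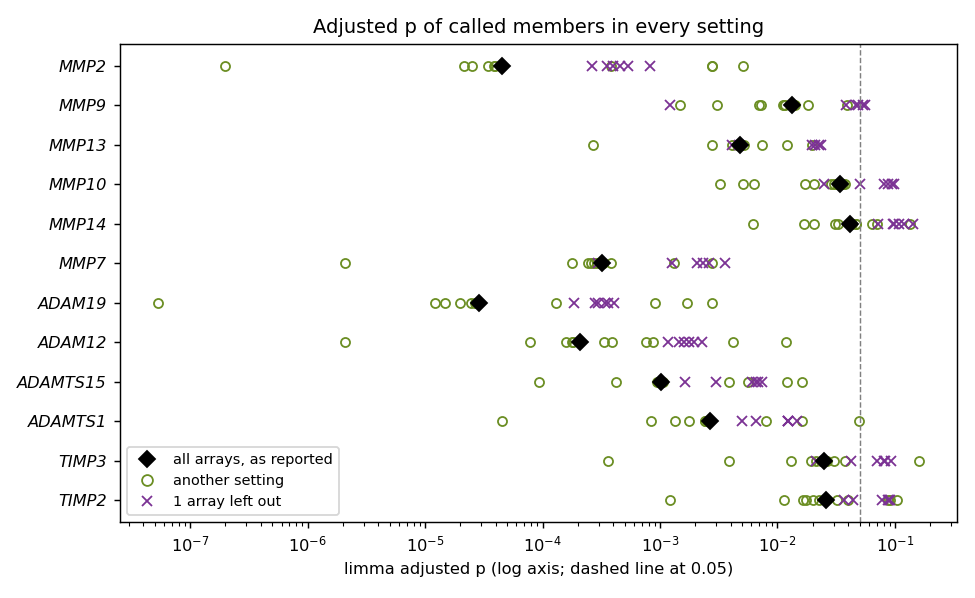
Limma adjusted p (log x axis) of the 12 called members with all arrays as reported (diamonds), with 1 array left out (crosses) and under other settings (circles). The dashed line is at 0.05: MMP2, MMP7, MMP13, ADAM12, ADAM19, ADAMTS1 and ADAMTS15 stay left of it in every setting, and MMP14 crosses it without any single array.

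Genes that work with these enzymes were read from 4 lists. Of 20 regulators of activation and trafficking (proprotein convertases, iRhoms, tetraspanins, RECK, A2M and others) 2 rose and 0 fell. The called share was 10%, near the 8.50% of all genes, and the median was 0.15 (log2) against -0.0027 over all genes. Both rises were tetraspanins that partner ADAM10: TSPAN5 was 1.32-fold higher (8.56 ± 0.08 with TGF-β1 and 8.16 ± 0.03 untreated, SD, n = 3 each, adjusted p = 0.0151) and TSPAN17 1.22-fold higher (adjusted p = 0.0373). The other ADAM10 partners in the list did not pass and ran from -0.27 for TSPAN15 (adjusted p = 0.081) to 0.36 for TSPAN14 (adjusted p = 0.0691), both without overlap between the groups. The tetraspanin CD9 differed by -0.27, also without overlap (adjusted p = 0.152). RECK, a membrane-anchored MMP inhibitor, differed by 0.16 (adjusted p = 0.31), and FURIN, the convertase that activates MMP14 and ADAMs, by 0.09 (adjusted p = 0.615). TSPAN15, TSPAN14, CD9, RECK and FURIN are named after their values were seen. Of 8 further metalloproteases of the same clan 1 rose, 12.5% against 8.50% of all genes, and 5 lay below the median probe set. The rise was BMP1, the procollagen C-proteinase, at 1.47-fold higher (6.64 ± 0.24 with TGF-β1 and 6.08 ± 0.07 untreated, SD, n = 3 each, adjusted p = 0.0295). The other 7 did not pass.

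Of 18 measured genes whose proteins ADAM10 or ADAM17 are known to shed, or relate to such substrates, 3 rose and 2 fell in RNA. That is 27.8% called, against 8.50% of all genes, with a median of 0.04 against -0.0027. Of the 14 above the median probe set 28.6% were called, against 12.0% of all genes above that level. The proteins were not measured. The Notch ligand JAG1 was 1.73-fold higher (adjusted p = 6.89e-04), the proteoglycan SDC1 1.49-fold higher (adjusted p = 0.0174) and the EGF-family ligand NRG1 1.30-fold higher (adjusted p = 0.0400). The falls, named after their values were seen, were the membrane chemokine CXCL16 at 1.43-fold lower (adjusted p = 0.0487) and BTC, a dim EGF-family ligand gene, at 1.23-fold lower (adjusted p = 0.0499). Of 12 substrates of ADAMTS proteases and related matrix genes, such as ACAN, VCAN and FBN1, limma called 0 (0 at an unadjusted p below 0.05), and 8 lay below the median probe set.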

How the data were processed

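Per the submitters' processing notes, the authors made the deposited log2 expression values with Affymetrix Expression Console and RMA, which corrects background, normalises between arrays and summarises the probes of a set. No version or option is given in the sources, and the log2 scale was inferred from the range, 1.57 to 14.5. No scanner files were used, so no detection calls were available, and RMA is known to shrink differences at low signal. There is no read depth, and precision rests on 3 arrays per group.

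Genes were named through the platform annotation. Of 54675 probe sets 41091 had 1 symbol, 1801 several and 11721 none, and 62 were controls. RefSeq (GRCh38.p14) changed 0 symbols. The comparison used limma 3.58.1 (R 4.3.3; lmFit, then eBayes, with neither covariate nor filter) over 19775 genes, and single probe sets over all 54613, with Benjamini-Hochberg adjustment and a threshold of 0.05. The fit was tested on simulated data. Deviations of same-numbered arrays correlated at 0.20, 0.06 and 0.09, so the number was not used as a block.

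The members, lists, enzyme classes and motifs were chosen with earlier results of these data known. The genes named were all called members, 11 preset enzymes, the 4 TIMPs, the 2 brightest members of each subfamily and up to 3 called genes per list; any others were named after their values were seen, to complete an enzyme class or a run of neighbours or as marked in the text. Alternatives covered normalisation, filters, choice of probe set, variance model, array weights, a 3′ over 5′ covariate, the replicate block and removal of arrays. With an array removed, each gene kept its probe set. Protein sequences were not used here.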

Additional observations from a re-analysis of the deposited data

How the results depend on the processing

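Over the 23 named members and their alternatives, 350 of 385 values kept their direction and side of the threshold, 28 lost the call, 2 gained it (MMP1 among genes above the median probe set and without untreated array 2) and 5 changed sign, all of these without passing. The sign changes were ADAM17 at 0.0055 after repeated quantile normalisation, 0.0037 with probe sets averaged, 0.028 without untreated array 3 and 0.023 without TGF-β1 array 1, and MMP28 at 0.045 without TGF-β1 array 3. Single-array removals ran from -0.057 to 0.028 for ADAM17 and from -0.11 to 0.045 for MMP28. Of the 11 rises, 6 were called when probe sets with shared-sequence suffixes were left out, with 3 MMPs, 1 ADAMTS and 0 TIMPs. That setting also left fewer members to test (68): MMP9, ADAMTS1 and TIMP3 had only suffixed probe sets and were not measured. MMP14 and TIMP2 were measured there and lost the call. Over all genes 482 of 16788 were called higher in that setting, against 796 of 19775 with suffixed probe sets kept. Among TIMPs 1 rise was called with probe sets averaged and 0 without both arrays numbered 1. When single arrays were left out, with fewer samples in each fit, 7 to 10 members were called higher and 1 lower, with 2 to 4 MMPs, 2 to 4 ADAMTSs and 0 to 2 TIMPs among the rises. Calls over all 19775 genes fell in these fits too, to 404 to 692 higher and 318 to 634 lower, against 796 and 884 with all arrays. The lowest count of MMP rises, 2, came without untreated array 3. The 4 ADAMTS rises came without TGF-β1 array 2, where ADAMTS5 and ADAMTS6 were added. Counts over the 78 members were 7 rises without untreated array 1, untreated array 2 or TGF-β1 array 3.

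The replicate block gave 12 rises and 1 fall among the members: MMP14 was lost (adjusted p = 0.0697), ADAMTS6 and ADAMTSL4 were added (adjusted p = 0.0421 and 0.0341), and ADAMTSL4 made 1 ADAMTS-like rise against 0. Over all genes 1280 were called with the block and 1680 without it. It changed no other member's call. Whether the arrays of a number share a culture is not stated in the labels. Over all genes the counts with a trended robust variance and without both arrays numbered 1 were 2629 and 627. Where probe sets of a gene disagreed, the cause was not tested. The dim members (37 of 78) had little room to show a difference, and a missing call there says little about expression.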

Other observations

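Other members that neighbour each other in RefSeq can be read in pairs. ADAMTS1 and ADAMTS5 lie next to each other on chromosome 21, and ADAMTS1 rose by 0.85 while ADAMTS5, at a mean of 2.51 below the median probe set, differed by 0.34 without passing. ADAMTS8 and ADAMTS15 neighbour each other on chromosome 11, and ADAMTS15 rose by 1.12 while ADAMTS8, at a mean of 3.99, differed by 0.13 without passing. ADAM9, ADAM32, ADAM18 and ADAM2 form a run on chromosome 8, in which ADAM9 alone lay above the median probe set and none of the 4 passed.

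Probe sets with several symbols were no members, and 2 of them carry a name of these families. The probe set shared by MMP23A and MMP23B lay at 3.18 with TGF-β1 and 3.36 untreated, a difference of -0.18 (limma adjusted p = 0.471 over all probe sets). The probe set shared by ADAM29 and an uncharacterised gene lay at 2.34 with TGF-β1 and 2.25 untreated, a difference of 0.09 (adjusted p = 0.645).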
